A study of Homo sapiens with 7 samples.

Results

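Contacts between positions 0.1 to 0.95 Mb apart on the same autosomal arm were described in 7 Hi-C libraries. The cells were DLD-1, a cell line from a human colorectal adenocarcinoma. Every autosomal arm with valid pairs of 50 kb bins at each of the 18 separations from 100 to 950 kb was taken. This gave 39 of 44 arms, the short arms 13p, 14p, 15p, 21p and 22p having no valid pair. There are thus 702 arm-by-separation values in each library, of 61775 such values in its whole table of within-arm contact. All libraries came from cells in which DNMT1, the enzyme that copies DNA methylation onto newly made strands, carries an auxin-inducible degron (DNMT1-AID), a tag that leads to loss of the protein when auxin is added. The 3 libraries with a knockout of DNMT3B had no auxin, 4 d of it or 10 d of it. DNMT3B is a methyltransferase that can place new methylation. The auxin-treated knockout libraries carry the genotype label DNMT1-AID;DNMT3b -/-, and the untreated one was grouped by its title. The 4 DNMT1-AID libraries without the knockout had no auxin, 4 d, 10 d, or 4 d and then a 4 d washout. The labels do not say whether the knockout line is 1 clone.

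Hi-C ligates DNA ends that lie close together in the nucleus, so the frequency of ligation between 2 positions reports how often they meet. That frequency decreases with the distance along the chromosome, and the steepness of the decrease on log-log axes (the slope) is a standard description of how the chromatin fibre is folded. In interphase cells the decrease is shallow at short range and steeper beyond. The shallow stretch is commonly ascribed to loops extruded by cohesin and to topologically associating domains. DNA methylation at some CTCF sites is known to hinder binding of CTCF, which stops cohesin at loop bases. The tables used here hold sums by distance, so single loops, domains, genes and sites were not seen.

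Each group held 1 library. Differences between groups therefore have no replicate check, and the counts of arms and the SD over arms describe these libraries only. Between 11509221 (washout) and 101926895 (4 d of auxin, DNMT1-AID) contacts fell in the range in a library. The counting error of the contact difference in 1 arm was between 0.0013 and 0.0086 on the log2 scale, and the smallest single value rested on 831 contacts (18p in the washout library). As no library lacks the degron, loss of DNMT1 and a direct effect of auxin cannot be told apart. The title of the untreated knockout library, not its genotype label (DNMT1-AID alone), put it in its group. Chromosome 8 had more contacts in the knockout cells: the share of within-arm contacts on 8p was higher by 0.47 (untreated), 0.46 (4 d) and 0.48 (10 d) on the log2 scale than in the DNMT1-AID cells.

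A contact level is given here as the balanced contact per valid bin pair. After balancing, the mean total per bin was the same on every autosome. The level is therefore read as the share of all contacts of a 50 kb bin that goes to 1 partner bin at that separation. In untreated DNMT1-AID cells it was 4.63% at 100 kb, 0.860% at 500 kb and 0.334% at 950 kb, a 13.8-fold difference between 100 and 950 kb. In knockout cells the range as a whole held 44.3% of the contacts of a bin untreated, 44.4% after 4 d and 38.8% after 10 d. In DNMT1-AID cells it held 43.9% untreated, 46.5% after 4 d, 40.7% after 10 d and 42.7% after washout. The 2 libraries at 10 d were thus the lowest of the 7, and they also had the largest shares of contacts between chromosomes, 29.2% in the knockout cells and 26.2% in the DNMT1-AID cells, against 20.5% to 25.2% in the other 5.

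The decrease with distance steepened through most of the range in every library. In untreated DNMT1-AID cells the local slope, taken between the neighbouring separations, was -0.944 at 150 kb and -1.58 at 900 kb, and it was nowhere shallower than at 150 kb. The slope fitted over all 18 separations was -1.188, with -1.021 over 100 to 450 kb (the near part) and -1.477 over 500 to 950 kb (the far part). The local slope of knockout cells passed -1.0 at 259 kb untreated, 243 kb after 4 d and 285 kb after 10 d. In DNMT1-AID cells it did so at 237 kb untreated, 268 kb after 4 d, 250 kb after 10 d and 216 kb after washout. The shallow stretch was therefore longest in knockout cells at 10 d and shortest in the washout library.

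**Figure D1:**
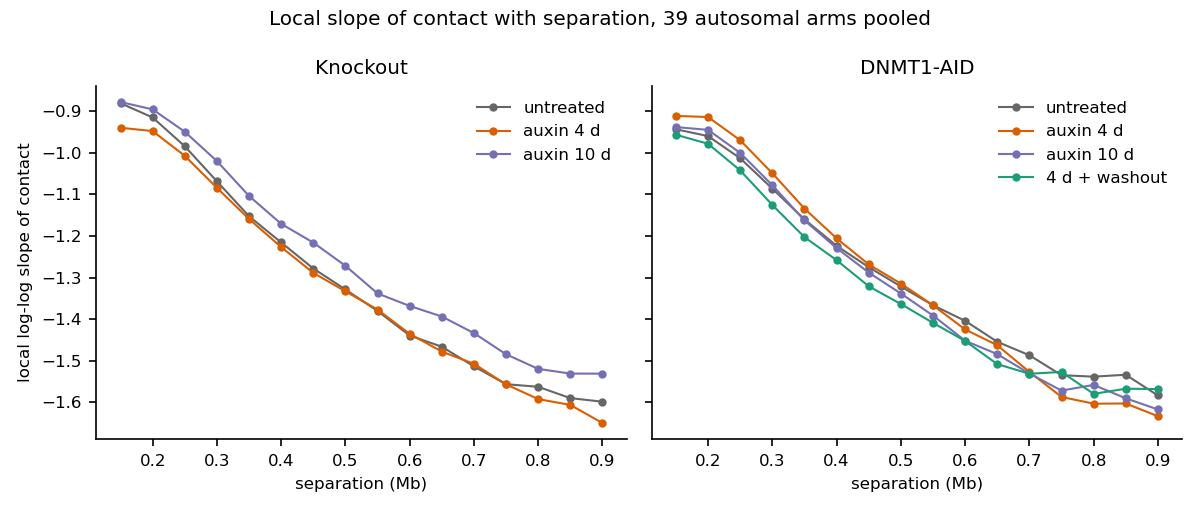
Local slope of log10 balanced contact on log10 separation (no unit) against separation in Mb, with the 39 arms pooled, for 3 knockout libraries (left) and 4 DNMT1-AID libraries (right); each point is 1 separation of 1 library. All curves are shallowest at 150 kb, the 4 d curve of DNMT1-AID cells starts above and ends below the untreated one, and the 10 d curve of knockout cells lies above the untreated one at every point from 200 kb on.

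The arms differed in slope more than the libraries did. Over the whole range, 19p was the steepest arm in all 7 libraries, at -1.386 in untreated knockout cells and -1.395 in untreated DNMT1-AID cells. The shallowest was 13q in knockout cells at 10 d (-1.071) and 4q in the other 6 libraries, with -1.107 in untreated DNMT1-AID cells. On 19p (chromosome 19, positions 1 to 25850000 in hg38) the level in untreated DNMT1-AID cells was 5.95% at 100 kb and 0.285% at 950 kb. On 4q (chromosome 4, positions 50750001 to 190250000) it was 4.14% at 100 kb and 0.352% at 950 kb. The gene-rich arm thus held more contact at the near end and less at the far end. The SD over arms of the slope was between 0.068 and 0.081 in a library, against pooled slopes that ran from -1.221 (washout) to -1.132 (knockout, 10 d).

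After 4 d of auxin, DNMT1-AID cells had more contact throughout the range. The log2 ratio to untreated cells, averaged over the separations of the pooled curve, was 0.098 (SD over arms 0.021), and the level was higher in 39 of 39 arms. Among the 702 single values, 701 were higher, whereas 27.7% were higher among all 9470 values of these arms from 100 kb on with at least 1000 counts in both libraries. The level was 4.77% after 4 d against 4.63% without auxin at 100 kb, 0.932% against 0.860% at 500 kb and 0.355% against 0.334% at 950 kb. The log2 ratio was smallest at 100 kb (0.044), largest at 550 kb (0.118) and 0.085 at 950 kb, so the excess was centred inside the range. From 1 to 10 Mb the pooled ratio was -0.024.

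The shape of the curve changed in opposite ways in the near and far parts. In the near part it was shallower, -0.985 after 4 d against -1.021 without auxin, in 39 of 39 arms. In the far part it was steeper, -1.512 after 4 d against -1.477 without auxin, also in 39 of 39 arms. The far slope was close to the 4 d value in DNMT1-AID cells after 10 d (-1.512) and after washout (-1.510). It was also close in knockout cells untreated (-1.501) and at 4 d (-1.509), but not at 10 d (-1.437). The far differences within the DNMT1-AID line thus all rest on the untreated library that serves as their reference. In the pooled curve the local slope differed most at 850 kb, by -0.069, where it was steeper in 30 arms. The largest difference towards a shallower slope lay at 200 kb, at 0.046, and was shared by all 39 arms. Over the whole range these parts nearly cancelled: the slope was higher by 0.015 (SD over arms 0.013) in 36 arms, while 19p (-0.025), 9p (-0.0092) and 16p (-0.0046) went the other way. The count for the whole range therefore says little without its parts.

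The arms with the largest gain of contact were 17p (0.16), 22q (0.16) and 19q (0.14) on the log2 scale, and the smallest gains were on 9p (0.075), 11p (0.075) and 5p (0.078). On 17p (chromosome 17, positions 1 to 24700000) the level was 5.94% after 4 d against 5.69% without auxin at 100 kb and 0.974% against 0.857% at 500 kb. The part of a bin's contacts that lay in the range was 48.9% after 4 d against 44.8% without auxin on 17p and 50.4% against 46.3% on 19p. On 5p it was 42.9% after 4 d against 40.9% without auxin. The near slope moved most on 16p (0.068), 19q (0.063) and 22q (0.055), and the far slope on 19p (-0.16), 16p (-0.13) and 19q (-0.11). The arms named for the near and the far part were thus gene-rich ones, and 18p, the shortest arm, had the smallest far change (-0.0012) together with 10p (-0.0045).

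After 10 d of auxin, DNMT1-AID cells had less contact throughout the range than untreated ones. The mean log2 ratio was -0.11 (SD over arms 0.018), lower in 39 of 39 arms and in 700 of 702 single values, against 91.6% lower among all values of these arms with enough counts. The loss thus covered larger distances too, and from 1 to 10 Mb the ratio was -0.079. The level was 4.28% after 10 d against 4.63% without auxin at 100 kb, 0.800% against 0.860% at 500 kb and 0.304% against 0.334% at 950 kb. Contacts between chromosomes made up 26.2% after 10 d against 21.4% of all contacts without auxin, and the part of the lower level that goes with this was not tested. As raw counts divided by the contacts within arms, the level was lower in 32 arms with a mean log2 ratio of -0.016.

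The slopes at 10 d kept the direction seen at 4 d in both parts, with a smaller near change. Near slopes were higher in 30 of 39 arms (pooled -1.014 after 10 d against -1.021 without auxin), and the far slope was -1.512 against -1.477, lower in 36 arms. The slope over the whole range differed by -0.0074 in the pooled curve and was lower in 30 arms, and in 19 arms when near separations got more weight. The far slope changed most on 19q (-0.17), 19p (-0.15) and 16p (-0.11), and the near slope on 17p (0.039), 16p (0.037) and 22q (0.035). The level was lowest relative to untreated cells on 11p (-0.14), 12p (-0.14) and 11q (-0.13), and least lowered on 17p (-0.062), 10p (-0.063) and 22q (-0.072). The 4 d and 10 d comparisons share the untreated library.

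The library taken after 4 d of auxin and 4 d of washout had less contact in the range than untreated cells, and a steeper decrease. The mean log2 ratio was -0.064 (SD over arms 0.013), lower in 39 of 39 arms and in 692 of 702 values, 98.6% of them, against 94.4% lower among all values with enough counts. The lower level was thus not particular to the range, and from 1 to 10 Mb the pooled ratio was -0.044. As a share of the contacts within arms, the range held 59.2% both after washout and in untreated cells. Within the range the deficit grew with separation, the log2 ratio being -0.0077 at 100 kb, -0.070 at 500 kb and -0.098 at 950 kb. The level was 4.61% after washout against 4.63% in untreated cells at 100 kb and 0.312% against 0.334% at 950 kb. Its near slope was -1.046 after washout against -1.021 in untreated cells and its whole slope -1.221 against -1.188, both steeper in 39 of 39 arms. The far slope was -1.510 after washout against -1.477 in untreated cells and steeper in 34 arms. Lowest in level lay 19p (-0.12), 17q (-0.10) and 18p (-0.085), and the highest were 13q (-0.049), 10p (-0.050) and 6p (-0.054).

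Set against the 4 d library, the washout library had less contact in 39 of 39 arms, with a mean log2 ratio of -0.16 (SD over arms 0.026). All 702 single values were lower, against 88.8% of all values with enough counts, and from 1 to 10 Mb the pooled ratio was -0.020. The near slope was -1.046 after washout against -0.985 at 4 d and lower in 39 of 39 arms. The far slope differed by 0.0014 in the pooled curve and was lower in 20 arms and higher in 19. The largest differences in level were on 19p (-0.23), 22q (-0.22) and 17q (-0.22), and in near slope on 19p (-0.10), 19q (-0.10) and 22q (-0.10). The washout library was the shallowest sequenced of the 7, and it alone stands for that condition.

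In knockout cells, 4 d of auxin changed the shape of the curve more than its level. At 100 kb the level was 4.68% after 4 d against 4.50% in untreated knockout cells, higher in 39 of 39 arms. It was 0.871% after 4 d against 0.884% without auxin at 500 kb and 0.332% against 0.339% at 950 kb, where it was lower in 31 arms. The pooled log2 ratio was 0.057 at 100 kb, -0.0021 at 200 kb and -0.032 at 950 kb. Averaged over the range the pooled ratio was -0.013 (mean over arms -0.0053), and the level was lower in 24 of 39 arms and in 434 of 702 values, against 52.2% of all values. This direction was not stable. With raw counts over all contacts 17 arms were lower, and with the separations summed before the ratio 13 arms were lower.

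The decrease was steeper, with a slope of -1.194 after 4 d against -1.175 without auxin and lower in 39 of 39 arms. This held for the near slope, -1.016 after 4 d against -0.984 without auxin and lower in 39 of 39 arms, and the far slope differed by -0.0085 in the pooled curve and was lower in 26 arms. Most of the near change lay at its start, where the local slope at 150 kb was -0.940 after 4 d against -0.881 without auxin. The arm 19p moved most in the whole slope (-0.065) and in the far slope (-0.12), followed in the whole slope by 19q (-0.038) and 22q (-0.035). In near slope 4q (-0.044), 11p (-0.042) and 12p (-0.042) lay lowest and 10p (-0.011) highest. The level was highest on 17p (0.056), 22q (0.049) and 17q (0.044), and lowest on 4q (-0.050), 5p (-0.048) and 18q (-0.037).

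After 10 d of auxin, knockout cells had less contact in the range and a shallower decrease. The mean log2 ratio to untreated knockout cells was -0.16 (SD over arms 0.024), lower in 39 of 39 arms and in 699 of 702 values, against 50.1% of all values with enough counts. The loss was largest at the short end. The level was 3.85% after 10 d against 4.50% without auxin at 100 kb (log2 ratio -0.22), 0.792% against 0.884% at 500 kb (-0.16) and 0.316% against 0.339% at 950 kb (-0.10). From 1 to 10 Mb the pooled ratio was 0.017, against -0.16 below 1 Mb. The share of contacts between chromosomes was 29.2% after 10 d against 25.2% without auxin. With raw counts over the contacts within arms 32 arms were lower, with a mean log2 ratio of -0.050.

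Both parts of the curve were shallower in knockout cells at 10 d. The slope was -1.132 after 10 d against -1.175 without auxin, and 39 of 39 arms were higher. Its near part was -0.958 after 10 d against -0.984 without auxin, higher in 39 arms, and the far slope was -1.437 against -1.501, higher in 38 arms, the exception being 19p (-0.047). The whole slope changed most on 16p (0.085), 21q (0.071) and 17p (0.070), and least on 19p (0.014), 19q (0.024) and 4q (0.026). The near slope changed most on 17p (0.059), 17q (0.055) and 22q (0.053). The level was lowest on 4q (-0.20), 8q (-0.18) and 5p (-0.18), and least lowered on 22q (-0.098), 17p (-0.10) and 17q (-0.11).

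**Figure D2:**
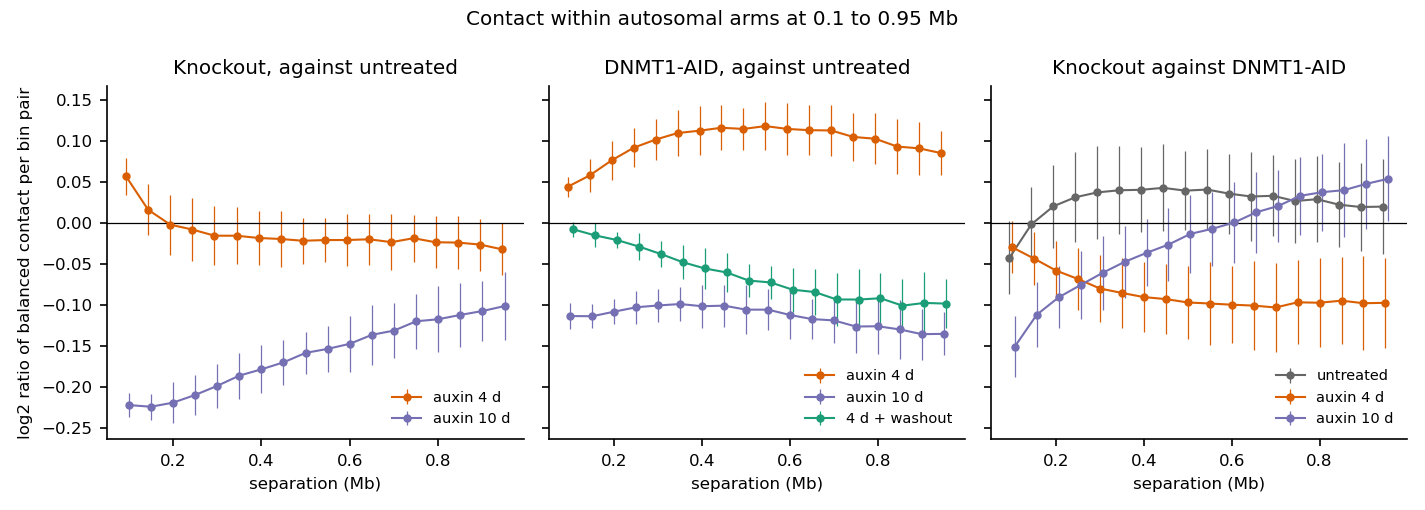
Log2 ratio of balanced contact per bin pair against separation in Mb, with the 39 arms pooled; bars are the SD over arms and the horizontal line marks no difference. Left, knockout libraries over untreated knockout cells; middle, DNMT1-AID libraries over untreated DNMT1-AID cells; right, knockout over DNMT1-AID cells at the same time. The 4 d curve of DNMT1-AID cells peaks at 0.118 at 550 kb, and the 10 d curve of knockout cells climbs with separation and stays below 0.

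Untreated knockout cells differed from untreated DNMT1-AID cells mainly in the shape of the curve. At 100 kb the level was 4.50% in knockout against 4.63% in DNMT1-AID cells, lower in 33 of 39 arms, and at 500 kb it was 0.884% against 0.860%, higher in 30 arms. The mean log2 ratio of the pooled curve over the range was 0.026 (mean over arms 0.020, SD over arms 0.048). The level was higher in 28 of 39 arms and in 463 of 702 values, against 11.3% higher among all values with enough counts. From 1 to 10 Mb the pooled ratio was -0.20. The direction depended on the scale: with raw counts over all contacts, 12 arms were higher instead of 28. It held with raw counts over the contacts within arms and over those of the same arm. As a share of the raw contacts within arms, the range held 62.5% in untreated knockout and 59.2% in untreated DNMT1-AID cells.

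Knockout cells had the shallower near slope, -0.984 in knockout against -1.021 in DNMT1-AID cells, in 39 of 39 arms, with the largest local difference at 150 kb (-0.881 against -0.944). The far slope differed by -0.024 in the pooled curve and was lower in 30 arms. Over the whole range the slope was higher by 0.012 in 34 arms, and in 20 arms without the 100 kb separation. The highest ratios of level were on 5p (0.14), 18q (0.10) and 13q (0.093), all gene-poor arms, and the lowest on 17q (-0.076), 8p (-0.066) and 9q (-0.059). On 5p (chromosome 5, positions 1 to 48250000), a bin placed 44.8% of its contacts in the range in knockout cells and 40.9% in DNMT1-AID cells. On 17q that share differed by -2.80 percentage points. The far slope was lowest relative to DNMT1-AID cells on 19q (-0.15), 8p (-0.12) and 19p (-0.10).

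At 4 d of auxin, knockout cells had less contact than DNMT1-AID cells, in the range as at larger distances. The mean log2 ratio was -0.085 (SD over arms 0.042), lower in 38 of 39 arms, 5p (0.017) being the exception. Among the 702 single values, 674 (96.0%) were lower, against 97.5% of all values with enough counts, and from 1 to 10 Mb the pooled ratio was -0.18. The level was 4.68% in knockout against 4.77% in DNMT1-AID cells at 100 kb, 0.871% against 0.932% at 500 kb and 0.332% against 0.355% at 950 kb. The near slope differed by -0.031 and was lower in 39 of 39 arms, and the far slope differed by 0.0021 and was higher in 19 arms. The lowest arms in level were 8p (-0.17), 17p (-0.16) and 17q (-0.15). Raw counts divided by the contacts of the same arm, a scale added after seeing the data, gave 23 lower arms.

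At 10 d the 2 curves crossed. The level was 3.85% in knockout cells against 4.28% in DNMT1-AID cells at 100 kb, lower in 39 of 39 arms, and 0.316% in knockout against 0.304% in DNMT1-AID cells at 950 kb, higher in 34 arms. The crossing lay near 600 kb, where the pooled log2 ratio was 0.00061. The mean over the range was -0.021, lower in 30 of 39 arms. Of the 702 single values 416 (59.3%) were lower, against 78.1% of all values with enough counts. With raw counts over the contacts within arms 17 arms were lower, and over the contacts of the same arm 2. The slope does not depend on the total that counts are divided by, so these scales do not test it. It was -1.132 in knockout against -1.195 in DNMT1-AID cells. It was shallower in 39 of 39 arms, both from balanced values and from raw counts. The near slope was higher by 0.056 in 39 arms, and the far slope by 0.076 in 38 arms, all but 19p (-0.0051). The largest slope differences were on 16p (0.12), 22q (0.099) and 17q (0.089). In level 8p (-0.13) lay lowest again, and 5p (0.065) highest. The 3 comparisons between the lines use 6 different libraries.

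**Figure D3:**
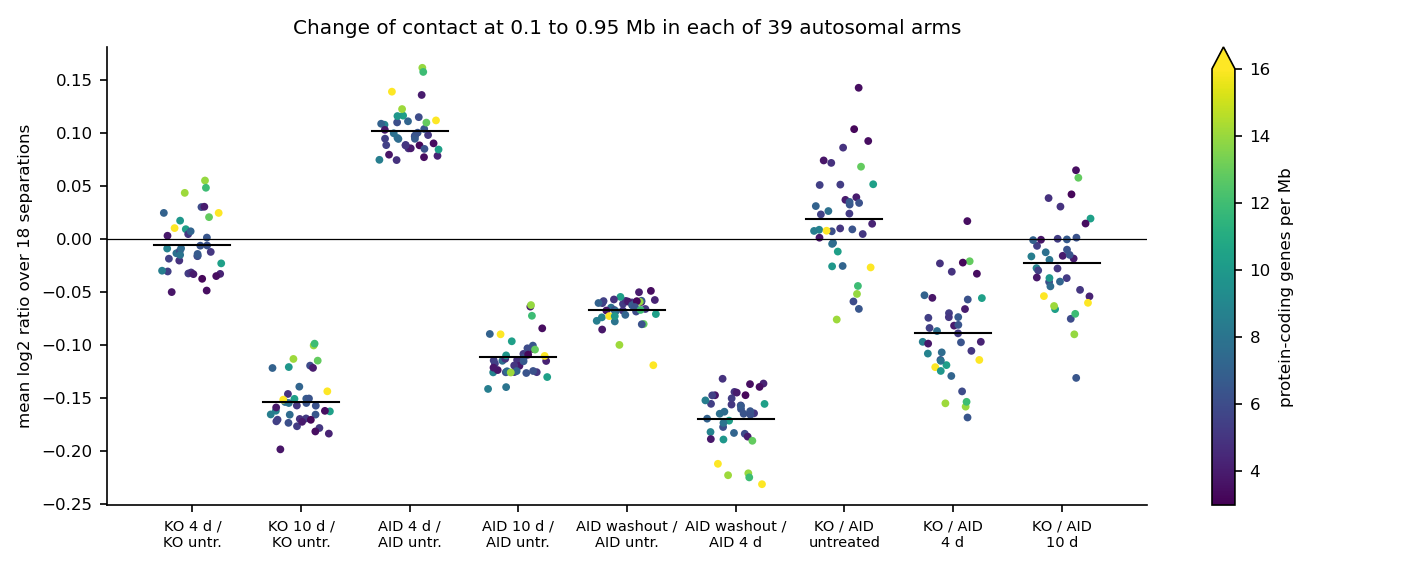
Mean log2 ratio of balanced contact per bin pair over 18 separations in each of 39 autosomal arms (points) for 9 comparisons, each given as the first library over the second, with AID for DNMT1-AID and KO for the DNMT3B knockout; colour gives protein-coding genes per Mb (arms above 16 share the last colour) and the black line the mean over arms. All arms lie above 0 for 4 d over untreated DNMT1-AID cells and below 0 for 10 d and for washout, while the knockout at 4 d straddles 0.

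**Figure D4:**
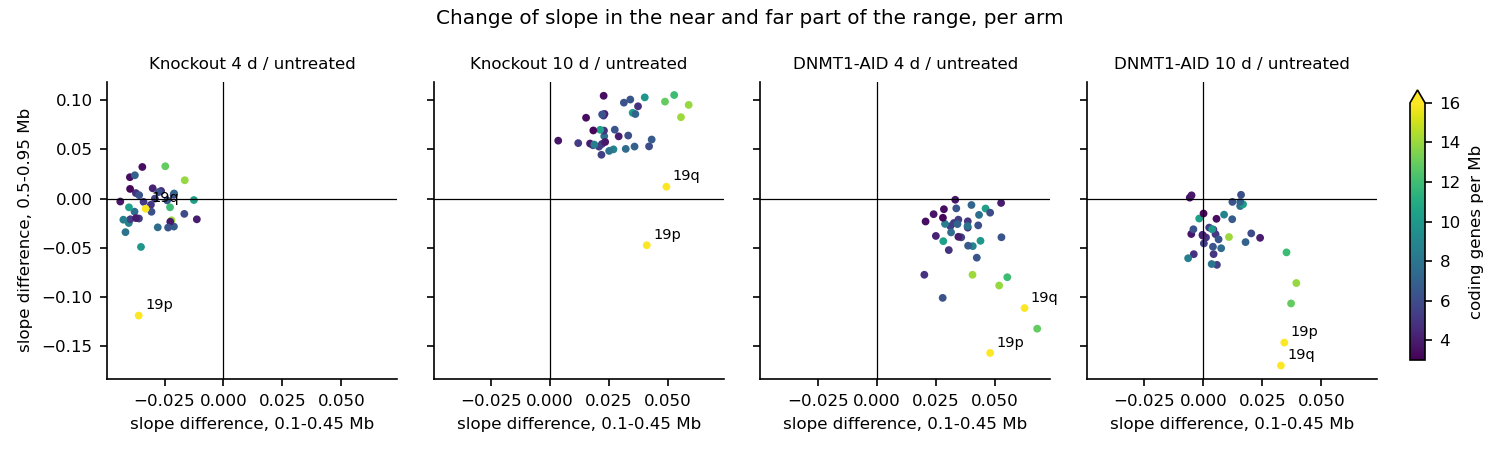
Difference of slope over 0.1 to 0.45 Mb (horizontal) and over 0.5 to 0.95 Mb (vertical) in each of 39 arms, for 4 comparisons of auxin-treated with untreated cells; colour gives protein-coding genes per Mb and lines mark no difference. In DNMT1-AID cells at 4 d all arms lie to the right and below, with 19p lowest at -0.16, and in knockout cells at 10 d all arms but 19p lie to the right and above.

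Gene density was counted as RefSeq protein-coding genes per Mb of arm, from 3.21 on 18q to 25.1 on 19p. It went with the near slope in every library. Over the 39 arms, Pearson's r between the near slope and gene density was -0.90 in untreated DNMT1-AID cells and between -0.92 and -0.89 in all 7 libraries. It was -0.90 without 19p and 19q in untreated DNMT1-AID cells. The 13 arms with the most genes per Mb averaged a near slope of -1.112 ± 0.079, and the 13 with the fewest -0.981 ± 0.022 (SD over arms, untreated DNMT1-AID). These correlations describe arms of 1 library, which share its depth and balancing. Gene density also went with the share of bins in the authors' cluster A1 (r = 0.85 over the 38 arms that have clusters) and with arm length (r = -0.43), and base composition was not measured.

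Arm length was less closely related to the slopes. In untreated DNMT1-AID cells r between the near slope and log10 length was 0.47, and 0.23 once gene density was accounted for, while the relation to gene density was -0.88 once length was accounted for. The longest arm, 2q (149.05 Mb, 5.25 genes per Mb), and the shortest, 18p (18.15 Mb, 3.86 genes per Mb), both gene-poor, had near slopes of -0.974 and -0.983 in these cells. By contrast 19p (25.85 Mb) and 19q (32.8 Mb, 24.5 genes per Mb) had -1.257 and -1.193. The 2 gene-poor arms were thus alike in near slope despite their lengths.

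The changes of slope in DNMT1-AID cells were also graded by gene density. At 4 d the near change was 0.046 ± 0.012 in the 13 gene-richest arms and 0.031 ± 0.0088 in the 13 gene-poorest (r = 0.61 over 39 arms, 0.58 without 19p and 19q, 0.51 from raw counts). The far change was -0.066 ± 0.046 and -0.028 ± 0.021 in these groups (r = -0.75, -0.58 without 19p and 19q, -0.78 from raw counts). At 10 d the near change was 0.018 ± 0.016 in the gene-richest and 0.0018 ± 0.0078 in the gene-poorest arms (r = 0.68). The far change was -0.062 ± 0.052 and -0.031 ± 0.019 (r = -0.76), a relation that 19p and 19q set in large part, r being -0.39 without them. The 4 d and 10 d changes share the untreated DNMT1-AID library as reference. Relative to it, untreated knockout cells also had their lowest far slopes on 19q (-0.15), 8p (-0.12) and 19p (-0.10). The relation to gene density in that comparison did not keep its sign without 19p and 19q. At 4 d in DNMT1-AID cells, r of the slope change with log10 length was -0.39 for the near and 0.47 for the far slope. It came to -0.18 and 0.25 with gene density accounted for.

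**Figure D5:**
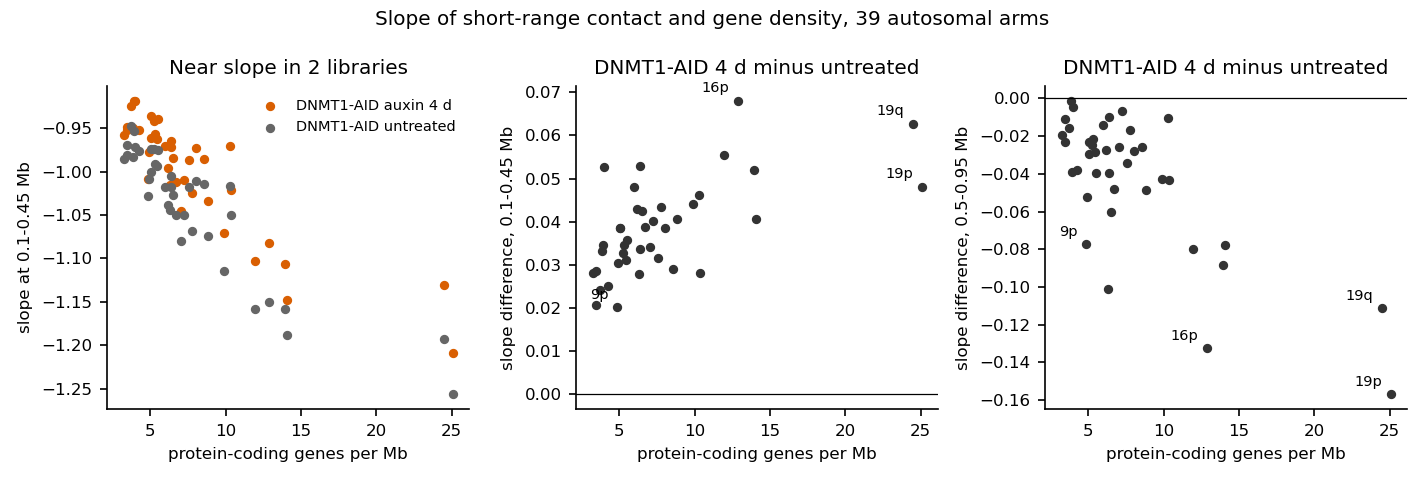
Left, slope over 0.1 to 0.45 Mb against protein-coding genes per Mb in 39 arms for DNMT1-AID cells after 4 d of auxin and untreated; middle and right, difference of slope between these libraries over 0.1 to 0.45 Mb and over 0.5 to 0.95 Mb against gene density. The near difference is above 0 and the far difference below 0 in every arm, and the gene-rich arms 16p, 19p and 19q lie far out in the far part (-0.13, -0.16 and -0.11).

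In knockout cells the near change at 4 d had no steady relation to gene density (r = 0.059, 0.26 without 19p and 19q, -0.26 from raw counts), with -0.031 ± 0.010 in the gene-richest and -0.031 ± 0.0091 in the gene-poorest arms. At 10 d it was graded, with 0.038 ± 0.014 and 0.021 ± 0.0081 (r = 0.65, 0.74 without 19p and 19q, 0.81 from raw counts). The far change at 10 d gave r = -0.46, which turned to 0.32 without 19p and 19q, so those arms decided its sign. Between the lines, the near slope difference gave r of 0.28 untreated, -0.30 at 4 d and 0.20 at 10 d.

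Relations of the level itself to gene density depended on the scale. At 4 d in DNMT1-AID cells the gain averaged 0.116 ± 0.026 in the gene-richest and 0.091 ± 0.016 in the gene-poorest arms (r = 0.56 from balanced values, 0.23 from raw counts over the contacts within arms). In knockout cells at 4 d r was 0.55 from balanced values and -0.69 from raw counts. In that comparison the raw contacts on gene-rich arms were themselves fewer: the log2 share of within-arm contacts was -0.11 on 19p and -0.13 on 19q relative to untreated cells, and its r with gene density was -0.85. After washout r was -0.64 from balanced values and 0.21 from raw counts. For 10 d in knockout cells both scales gave a positive r, 0.45 and 0.81, the arms with more genes losing less. The raw value also carries a change of coverage. In that comparison the log2 share of within-arm contacts was 0.15 on 19p and 0.025 on 19q, and its r with gene density was 0.68. Between the untreated lines r was -0.44 from balanced values and -0.12 from raw counts, and the 13 gene-richest arms averaged -0.0051 ± 0.041 against 0.054 ± 0.045 in the 13 gene-poorest.

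The arms of chromosome 19 stood apart in most of these comparisons. On 19p the level at 500 kb in knockout cells was 0.780% untreated, 0.801% after 4 d and 0.719% after 10 d. In DNMT1-AID cells it was 0.774% untreated, 0.864% after 4 d, 0.737% after 10 d and 0.715% after washout. The far slope of 19p in knockout cells was -1.602 untreated, -1.721 after 4 d and -1.649 after 10 d. In DNMT1-AID cells it was -1.498 untreated, -1.655 after 4 d, -1.644 after 10 d and -1.501 after washout, so the washout value lay next to the untreated one, and all 3 knockout values were steeper than these 2. On 19q the far slope in DNMT1-AID cells was -1.422 untreated, -1.534 after 4 d, -1.592 after 10 d and -1.526 after washout. Here the washout value lay near the treated ones. In knockout cells the far slope of 19q was -1.575 untreated, -1.585 after 4 d and -1.563 after 10 d. The untreated DNMT1-AID value was thus the shallowest of all libraries on 19q, and knockout cells without auxin were as steep as treated ones. In the authors' clusters 16.3% of the clustered bins of 19p and 14.6% of those of 19q belonged to B4, a cluster that held at most 1.97% of them on any other arm with clusters. The washout values of these 2 arms come from the shallowest sequenced library, with 80212 contacts in the range on 19p. The counting error of a slope was not computed, so a difference between the 2 arms after washout was not tested.

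Compared with larger distances, the changes of slope in this range ran in their own direction in several comparisons. At 4 d in DNMT1-AID cells the slope over 1 to 9.95 Mb was steeper in 39 of 39 arms, and over 0.1 to 0.95 Mb, fitted the same way, it was shallower in 37. After washout it was shallower over 1 to 9.95 Mb in 36 arms and steeper below 1 Mb in 39. In untreated knockout against DNMT1-AID cells it was steeper over 1 to 9.95 Mb in 38 arms and shallower below 1 Mb in 39. At 10 d in knockout cells it was shallower in both ranges, in 33 arms over 1 to 9.95 Mb and in 39 below 1 Mb.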

How the data were processed

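Per the labels' protocols, an Arima kit was used for Hi-C, with paired-end sequencing. BWA and the build hg38 come from the submitters' processing notes. How contacts were filtered, balanced and summed, and with which BWA version, is not given in the sources used here. Per the file headers, each row of the deposited tables holds, for 1 arm and 1 separation in 50 kb bins, a raw contact count, a balanced sum and how many bin pairs were valid. The balanced values are a signal that the authors made by balancing the contact matrix. The mean total per valid bin came to 1 on every autosome in each library. Totals of single bins could not be tested from sums by distance. Raw counts include bins masked in balancing.

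Contact per valid bin pair was computed per arm and separation (2 to 19 bins). The level is the mean log2 ratio over 18 separations, and the slope an unweighted least-squares fit of log10 contact on log10 separation. The slope by larger ranges was fitted to log-spaced bins. Pooled curves sum the 39 arms. A balanced mean ratio given for a whole comparison is that of the pooled curve, and the SD beside it is of the values of single arms. Gene density used 19075 protein-coding genes of RefSeq's GRCh38 annotation, and clusters are the authors', made from the untreated DNMT1-AID library; 13q was not used there. Of 11 comparisons 9 are described. Each group holds 1 library, so nothing was tested. Named arms are the 3 highest and 3 lowest of each comparison, plus 19p, 19q, the longest and the shortest arm. The members and these lists were chosen with earlier results of these data known. Slopes and levels were tested on simulated data. Other scales, separations, weights and sets of arms were tried as alternatives. Python 3.11.15, numpy 2.4.6, pandas 2.3.3, scipy 1.17.1 and matplotlib 3.10.9 were used.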

Additional observations from a re-analysis of the deposited data

Results flagged for a closer look

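In the pooled curves, the difference between auxin-treated and untreated cells had opposite signs in the 2 lines in 5 measures. Some of these rest on a value whose direction changed with the processing or the part of the range. With 1 library per group the differences were not tested. At 4 d the mean log2 contact per bin pair changed by -0.0132 in knockout and 0.0978 in DNMT1-AID cells, a difference of -0.111. The knockout value here has no steady direction, with 24 arms lower, 17 from raw counts over all contacts and 13 with the separations summed. At 4 d the slope over 100 to 950 kb changed by -0.0190 in knockout and 0.0146 in DNMT1-AID cells, a difference of -0.0336. The DNMT1-AID value here depends on the part of the range, with 36 arms higher but 0 over 500 to 950 kb. The slope over 100 to 450 kb changed by -0.0328 in knockout and 0.0357 in DNMT1-AID cells at 4 d, a difference of -0.0685, and here all 39 arms of each line followed its own direction. The untreated libraries already differed in this slope, with -0.984 in knockout and -1.021 in DNMT1-AID cells. At 4 d it was -1.016 in knockout and -0.985 in DNMT1-AID cells. Arms of 1 library are not replicates, so their agreement does not test a response of the line. At 10 d the slope over 100 to 950 kb changed by 0.0430 in knockout and -0.0074 in DNMT1-AID cells, a difference of 0.0505. The DNMT1-AID value here is not steady either, with 30 arms lower, 19 with weights of 1 over separation and 9 over 100 to 450 kb. The slope over 500 to 950 kb changed at 10 d by 0.0643 in knockout and -0.0354 in DNMT1-AID cells, a difference of 0.0996. The DNMT1-AID value here rests on its untreated library, with a slope of -1.477. That was shallower than after 4 d (-1.512) or washout (-1.510) and than in untreated knockout cells (-1.501).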

How the results depend on the processing

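With 1 library per group no replicate could be left out. No paired analysis was possible because each group holds 1 library. Of 54 alternative counts of arms by level, 49 kept the direction, and of 54 by slope, 50 did; the scale that divides raw counts by the contacts of the same arm was added after seeing the data. These totals include counts without chromosome 8, which removes too few arms to change the direction of any count, so that setting was no test. For the level, the direction changed for knockout cells at 4 d, with 17 (raw counts over all contacts) and 13 (separations summed) lower arms, where 24 were lower. It changed between the untreated lines, with 12 higher arms from raw counts over all contacts, where 28 were higher. It changed between the lines at 10 d, with 17 (over contacts within arms) and 2 (same arm) lower arms, where 30 were lower. Between the lines at 4 d the direction held over the contacts of the same arm, but with 23 lower arms, where 38 were lower. For the slope, most changes of direction come from fitting the near or the far part alone. Over 500 to 950 kb alone, 0 arms were shallower at 4 d in DNMT1-AID cells and 9 between the untreated lines. For 10 d in DNMT1-AID cells, 9 were steeper over 100 to 450 kb and 19 with weights of 1 over separation. Other counts kept the direction by a narrow margin. Over 500 to 950 kb, 20 arms were steeper for washout against 4 d and for the lines at 4 d, and between the untreated lines 20 were shallower from 150 kb on.

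Of 315 alternative correlations, 12 changed the sign of an r of at least 0.3 in size. With raw counts, the level gave r with gene density of 0.212 for washout against untreated cells, -0.688 for knockout cells at 4 d and 0.084 between the lines at 10 d, the last being 0.163 over the contacts of the same arm. With log10 length the level gave -0.105 (raw) and -0.023 (same arm) for washout against untreated, 0.219 (raw) for knockout cells at 4 d, and over the contacts of the same arm 0.423 for 4 d in DNMT1-AID cells and -0.468 for washout against 4 d. The near slope gave 0.015 with length from raw counts for knockout cells at 4 d. Without 19p and 19q the far slope gave 0.324 with gene density for knockout cells at 10 d and 0.046 between the untreated lines. The cause of these changes was not tested. For the local slope at 200 and 800 kb, none of 54 alternatives reversed a difference larger than its counting error. Depth limits the washout library most, with counting errors of an arm's level up to 0.0086.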
